A study of Homo sapiens with 8 samples.

Results

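The genes of MHC class I antigen presentation were followed in Panc10.05 cells, a human line established from a pancreatic adenocarcinoma, and in a derivative selected for resistance to indisulam. The set was 9 genes chosen by symbol, HLA-B, HLA-C, HLA-E, B2M, TAP1, TAP2, PSMB8, PSMB9 and NLRC5, out of 60675 genes in the count tables, and all 9 passed the filter on low counts that left 16661 genes for testing. Indisulam is a sulfonamide that makes the ubiquitin ligase receptor DCAF15 bind RBM39, a splicing factor, which is then degraded. There were 4 groups of 2 libraries. Parental untreated cells received no drug, and parental indisulam cells received 2 µM for 18 h. Resistant cells had been selected on rising doses of the drug over months. Resistant indisulam cells were kept on 2 µM throughout, and resistant untreated cells had been taken off the drug for a holiday of a week. The resistant cells are 1 derived line, the growth notes of the labels name A549 where titles and cell line fields name Panc10.05 (the titles were followed), and the 2 libraries of each group are described by the study as technical replicates, so the p-values measure only the spread between these libraries.

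MHC class I molecules present peptides from inside the cell to CD8+ T cells and to receptors on natural killer (NK) cells. Peptides are cut by the proteasome, carried into the endoplasmic reticulum by the transporter TAP1-TAP2, and loaded onto a heavy chain bound to the light chain beta-2-microglobulin, the product of B2M. HLA-B and HLA-C are classical heavy chains, HLA-E is a heavy chain read mainly by NK receptors, PSMB8 and PSMB9 are catalytic subunits of the immunoproteasome, and NLRC5 is a transactivator that acts at class I promoters through the enhanceosome of RFX, CREB/ATF and NF-Y factors. Interferon signalling is known to raise most of these genes.

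Between 65266253 and 108002436 reads per library fell in genes (PCR copies carried no molecular identifiers, so such depth limits counting error only), and the number of libraries set the precision. All 7 ductal epithelial markers, keratins among them, had reads in every group, and their summed level was 6330 to 6450 CPM (TMM-scaled read counts per library, set to a common total) in parental untreated, 6420 to 6520 in parental indisulam, 10800 to 10900 in resistant untreated and 11900 to 12200 in resistant indisulam cells. This sum was higher in the resistant line, and its part in the results was not tested. Of 7 immune markers, PTPRC and CD3E had no read in any library and the sum of all 7 was 0.238 to 0.445 CPM, so class I reads did not come with reads of lymphocyte genes. Fibroblast markers summed to 1.55 to 1.97 CPM in resistant untreated and 4.09 to 4.17 CPM in resistant indisulam cells, against 1.69 to 1.95 CPM in parental cells. DCN and LUM had no reads. The rise was that of COL1A1, from 1.34 and 1.85 to 3.96 and 3.89 CPM, 1.31 log2 units higher on the drug in resistant cells (adjusted p 8.3e-09). ACTA2, the other fibroblast marker tested, was not called there (-0.05, adjusted p 0.94). The part of the COL1A1 shift in the results was not tested. Endothelial markers summed to 0.181 to 0.341 CPM. In bulk libraries such as these, a lower level per cell and fewer cells carrying a transcript cannot be told apart.

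The promoters of class I genes are known for a small set of shared elements, and they are shown because several members moved together. RefSeq promoter windows on GRCh38.p14, 250 bases before to 50 bases after the start, were found for 7 of the 9 members. HLA-E and NLRC5 were not listed. Positions are counted from the RefSeq start, and since GENCODE gives longer transcripts, the HLA-B and B2M windows lie inside the annotated gene. Capitals mark matches on either strand to the core of the interferon-stimulated response element (ISRE; GAAA, any 2 bases, GAAA), the kB site (GGGGA, any 2 bases, CCC), the X2 core (TGACG) or the Y box (ATTGG). Over all 35116 promoters in the table, 3.57% held the ISRE core, 2.85% the kB site, 24.6% the X2 core and 34.6% the Y box.
HLA-B (chr6:31357219-31357368, minus strand): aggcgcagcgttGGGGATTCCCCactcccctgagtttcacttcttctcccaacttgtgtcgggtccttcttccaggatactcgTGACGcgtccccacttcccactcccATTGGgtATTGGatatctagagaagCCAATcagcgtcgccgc
HLA-C (chr6:31272132-31272296, minus strand): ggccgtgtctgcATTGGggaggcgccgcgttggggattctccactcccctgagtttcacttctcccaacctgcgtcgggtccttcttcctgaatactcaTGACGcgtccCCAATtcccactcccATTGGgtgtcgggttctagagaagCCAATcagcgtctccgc
B2M (chr15:44711361-44711484, plus strand): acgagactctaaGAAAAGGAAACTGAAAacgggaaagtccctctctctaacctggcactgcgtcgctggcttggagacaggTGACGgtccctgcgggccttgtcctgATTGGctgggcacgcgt
TAP1 (chr6:32853811-32853954, minus strand): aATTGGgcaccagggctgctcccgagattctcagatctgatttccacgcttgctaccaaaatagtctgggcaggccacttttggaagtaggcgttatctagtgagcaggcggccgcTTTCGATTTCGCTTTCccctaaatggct
TAP2 (chr6:32838758-32838809, minus strand): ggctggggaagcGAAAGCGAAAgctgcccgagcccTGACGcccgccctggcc
PSMB8, second start (chr6:32844036-32844057, minus strand): tgtggcTTTCGCTTTCacttcc

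An ISRE core was found in B2M, TAP1, TAP2 and at the second of the PSMB8 starts. B2M held a pair of overlapping cores between -144 and -129 from the start, and TAP1 held a pair between -134 and -119. HLA-B was the only one of the 7 members with a match to the kB letters, at -177 to -167, where overlapping matches on both strands gave 1 palindromic site. HLA-B, HLA-C, B2M, TAP2, PSMB8 and PSMB9 held an X2 core, and HLA-B, HLA-C, B2M, TAP1 and PSMB9 a Y box. TAP1 and PSMB9 are transcribed away from each other from starts 488 bases apart, so their windows overlap by 13 bases and share 1 Y box. A further element, the gamma-activated site (GAS; TTC, any 3 bases, GAA), was held by 7.66% of all promoters and matched at the second starts of TAP1, at -189 to -181, and PSMB8, at -65 to -57, and in no other member window. Neither X2 core nor Y box was rare among promoters in general, and a match is a run of letters, not evidence that a factor binds there. Only these exact letters were searched, so a window without a match may still hold a variant of the element. The TAP1 pair of ISRE cores lies between the TAP1 and PSMB9 starts, outside the PSMB9 window.

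To ask how the class I genes differed between groups, each member was tested in 5 comparisons of groups and in the difference of the drug responses of the lines. The clearest contrasts involved the resistant line. With both lines untreated, 8 of the 9 members were higher in resistant cells and 1, NLRC5, was lower, against 30.3% of all tested genes called higher and 29.9% called lower. When resistant cells on the drug were compared with resistant cells off it, 8 members were lower, none was higher and NLRC5 was not called, against 25.8% of all genes called lower and 24.9% called higher. In this line a fall or lowering on the drug means a level below that after the holiday. Whether levels rose when the drug was withdrawn or had fallen under it was not measured. With both lines untreated, the line and the holiday after the drug cannot be told apart. In parental cells the drug moved the members little, with 6 called higher and 2 called lower, against 31.6% and 26.6% of all genes, and a median log2 change of 0.11. Median log2 changes of the members were 0.72 for the lines off the drug and -0.7 for the drug in resistant cells, where the medians of all tested genes were -0.02 and 0.01. The comparisons that use parental untreated cells share those 2 libraries, those that use resistant untreated cells share theirs, and those that use resistant indisulam cells share theirs, so they are not independent of one another.

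**Figure D1:**
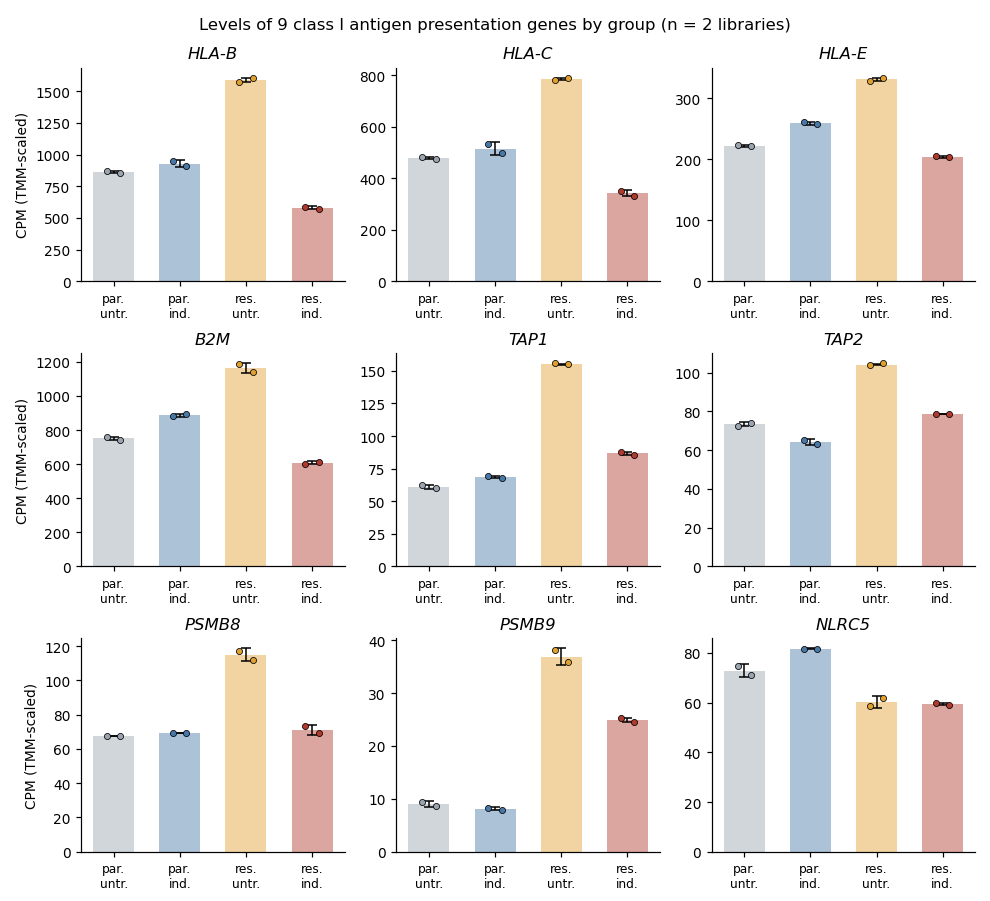
Levels of the 9 members in CPM (TMM-scaled) on axes that start at 0, with a bar for the mean, a line for the SD and a point for each of the 2 libraries of parental (par.) and resistant (res.) cells, untreated (untr.) or on indisulam (ind.). Except for NLRC5, which was highest in parental indisulam cells at 81.7 CPM, each member was highest in resistant untreated cells.

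The classical heavy chains had the largest falls on the drug among the members. HLA-B (ENSG00000234745, GRCh38 chromosome 6, 31353872 to 31367067, minus strand) measured 868 and 855 CPM in untreated and 946 and 909 CPM in treated parental cells, and 1575 and 1602 CPM in untreated and 589 and 573 CPM in treated resistant cells. No libraries of different groups overlapped, and the resistant line held both the highest and the lowest values. HLA-B was 1.84 times as high in resistant as in parental cells when both were untreated, a log2 change of 0.88 (SE 0.029, adjusted p 5.6e-18). On the drug it fell by 1.45 on the log2 scale in resistant cells (SE 0.03, adjusted p 2.7e-21). Resistant cells on the drug thus held 0.674 of the level of parental untreated cells, with a log2 change of -0.57 (adjusted p 2.6e-14).

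HLA-C (ENSG00000204525, chromosome 6, 31268749 to 31272130, minus strand) ran in the same order, with 482 and 474 CPM in untreated and 533 and 496 CPM in treated parental cells, and 782 and 789 CPM in untreated and 350 and 332 CPM in treated resistant cells. It was 1.64 times as high in untreated resistant as in untreated parental cells (log2 change 0.72, SE 0.033, adjusted p 2e-14), and on the drug it fell by 1.2 on the log2 scale in the resistant line (adjusted p 1.3e-17). HLA-E (ENSG00000204592, chromosome 6, 30489509 to 30494194, plus strand) moved less. Its levels were 224 and 221, 261 and 257, 329 and 333, and 205 and 203 CPM in the same 4 groups, so that all resistant untreated libraries lay above all others. HLA-E was 0.57 log2 units higher in untreated resistant than in untreated parental cells (SE 0.027, adjusted p 3.9e-15). The fall on the drug in resistant cells was from a mean of 331 to 204 CPM, a log2 change of -0.7 (SE 0.027, adjusted p 5.9e-16). Resistant cells on the drug were below parental untreated cells for HLA-E as well, but only slightly, with a log2 change of -0.12 (adjusted p 0.00028). HLA genes are polymorphic and alike in sequence, so reads of 1 gene may have been placed at another or lost in alignment, and alleles were not separated here. Reads set aside for low mapping quality, a place where such reads can end up, were 7.55 to 8.25% per library.

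The light chain followed the heavy chains. B2M (ENSG00000166710, chromosome 15, 44711358 to 44718851, plus strand) measured 758 and 744 CPM in untreated and 882 and 894 CPM in treated parental cells, and 1185 and 1141 CPM in untreated and 602 and 615 CPM in treated resistant cells, with no overlap between groups. It was 0.63 log2 units higher in untreated resistant than in untreated parental cells (SE 0.029, adjusted p 2.5e-15) and fell by 0.94 on the log2 scale on the drug in the resistant line (SE 0.029, adjusted p 7.4e-18). Against parental untreated cells, resistant cells on the drug held 0.81 of the level (log2 change -0.3, adjusted p 1.8e-09). B2M does not lie on the chromosome of the heavy chains, and 7 of the 9 members lie on chromosome 6.

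Unlike the heavy chains, the peptide transporter did not drop below the parental level. TAP1 (ENSG00000168394, chromosome 6, 32845209 to 32853816, minus strand) measured 62.3 and 60 CPM in untreated and 69.2 and 68.1 CPM in treated parental cells, and 156 and 155 CPM in untreated and 87.6 and 85.8 CPM in treated resistant cells. Every resistant library was above every parental library. The difference between the untreated lines was 1.35 log2 units (SE 0.03, adjusted p 2.1e-21), and the fall on the drug in resistant cells was to a mean of 86.7 ± 1.3 from 155 ± 0.537 CPM (SD, n = 2), a log2 change of -0.84 (SE 0.03, adjusted p 1.1e-16). TAP1 still stood 1.42 times as high in resistant cells on the drug as in parental untreated cells (log2 change 0.5, adjusted p 6e-13).

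TAP2 (ENSG00000204267, chromosome 6, 32821833 to 32838739, minus strand), the partner chain of the transporter, changed least of the members that fell on the drug. Its levels were 72.6 and 74 CPM in untreated and 65.1 and 63.1 CPM in treated parental cells, and 104 and 105 CPM in untreated and 78.8 and 78.7 CPM in treated resistant cells. The untreated lines differed by 0.51 log2 units (SE 0.03, adjusted p 3.2e-13), and the drug lowered TAP2 in both lines, by log2 changes of -0.19 in parental (adjusted p 8.6e-06) and -0.41 in resistant cells (adjusted p 9.2e-11). In resistant cells on the drug it was 0.1 log2 units above parental untreated cells (adjusted p 0.0043), a call that was lost without the parental untreated library 1 (0.09, adjusted p 0.076), the resistant indisulam library 1 (0.08, adjusted p 0.058) or the resistant indisulam library 2 (0.09, adjusted p 0.055).

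The immunoproteasome subunits differed from each other in size of change. PSMB9 (ENSG00000240065, chromosome 6, 32844136 to 32859851, plus strand) was the member with the largest difference between the lines, with 9.4 and 8.66 CPM in untreated and 8.36 and 7.92 CPM in treated parental cells, and 38.1 and 35.8 CPM in untreated and 25.2 and 24.6 CPM in treated resistant cells. It was 4.09 times as high in resistant as in parental untreated cells (log2 change 2.03, SE 0.049, adjusted p 8.3e-21). The drug lowered it in the resistant line by a log2 change of -0.57 (SE 0.044, adjusted p 2e-10), and it remained 2.76 times as high as in parental untreated cells (log2 change 1.46, adjusted p 9.9e-18). PSMB8 (ENSG00000204264, chromosome 6, 32840717 to 32844679, minus strand) measured 67.6 and 67.5, 69.3 and 69.4, 117 and 112, and 73.3 and 69.1 CPM in the same order of groups. It was 0.77 log2 units higher in resistant than in parental untreated cells (SE 0.033, adjusted p 8.5e-16) and lower on the drug in resistant cells, with a log2 change of -0.69 (SE 0.033, adjusted p 3.6e-14). Against parental untreated cells, PSMB8 in resistant cells on the drug gave a log2 change of 0.07 that missed the threshold (SE 0.033, adjusted p 0.059). It passed it under several other settings, for example with DESeq2 size factors (0.08, adjusted p 0.041) and without the resistant indisulam library 2 (0.1, adjusted p 0.035).

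PSMB8 and PSMB9 overlap by 139 exonic bases on opposite strands, and PSMB8 held 81.0% of the reads of the pair. PSMB8-AS1 overlaps exons of TAP1 and PSMB8 on the opposite strand and of PSMB9 on the same strand, with 5.37%, 6.01% and 21.4% of the reads of each pair. These shares count reads over whole genes, not reads inside the overlaps. The libraries were stranded, but the strand setting of the counting was not given in the sources used here. The levels of these genes are therefore uncertain by an amount that the shares do not measure.

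Immunoproteasome subunits take the place of constitutive ones, PSMB8 that of PSMB5, PSMB9 that of PSMB6 and PSMB10 that of PSMB7, so their levels were set against each other per kilobase of exon. The PSMB8 to PSMB5 ratio was 0.243 and 0.243 in untreated and 0.227 and 0.211 in treated parental cells, and 0.417 and 0.419 in untreated and 0.29 and 0.28 in treated resistant cells. The PSMB9 to PSMB6 ratio was 0.032 and 0.0294, 0.0253 and 0.0231, 0.117 and 0.119, and 0.0916 and 0.0913 in the same order. Both ratios were higher in every resistant library than in every parental library. In parental cells the drug raised PSMB5, PSMB6 and PSMB7 by 0.19 log2 units each (adjusted p 5.9e-05, 2.8e-05 and 2.3e-05), while PSMB8 was not called. In resistant cells it lowered all 3, by log2 changes of -0.14, -0.2 and -0.26, less than PSMB8 and PSMB9 by point estimate, a difference that was not tested.

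**Figure D2:**
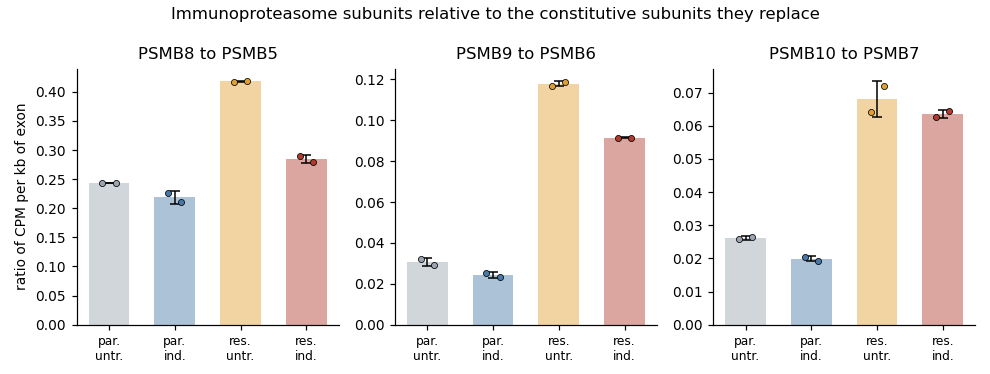
Ratio of CPM per kilobase of exon for each immunoproteasome subunit to the constitutive subunit it replaces, on axes that start at 0, with the mean (bar), SD (line) and each of 2 libraries (points) in the 4 groups. All 3 ratios were higher in the resistant than in the parental line, and in resistant cells the drug lowered the mean of the PSMB8 to PSMB5 ratio from 0.418 to 0.285.

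Between the untreated lines, NLRC5 moved in the opposite direction to the other members. NLRC5 (ENSG00000140853, chromosome 16, 56989485 to 57083531, plus strand) measured 74.6 and 71.1 CPM in untreated and 81.5 and 81.8 CPM in treated parental cells, and 58.6 and 62 CPM in untreated and 59.7 and 59.2 CPM in treated resistant cells. Every parental library was above every resistant library. It was lower in resistant than in parental untreated cells by a log2 change of -0.27 (SE 0.034, adjusted p 2.1e-07), in the comparison where the other 8 members were higher. In the resistant line its libraries on and off the drug overlapped, and the log2 change of -0.02 was not called (SE 0.035, adjusted p 0.66), in the comparison where the other 8 members fell. In parental cells it rose by 0.16 log2 units on the drug (SE 0.033, adjusted p 0.00017), where HLA-B, HLA-C, HLA-E, B2M and TAP1 were also called higher.

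In parental cells the responses to 18 h of the drug were all within 0.25 log2 units. B2M rose by 0.24 log2 units (SE 0.029, adjusted p 1.5e-07), HLA-E by 0.22 (SE 0.027, adjusted p 2.3e-07) and TAP1 by 0.17 (SE 0.031, adjusted p 7.1e-05). HLA-B and HLA-C each rose by 0.11 (adjusted p 0.003 and 0.0078), and PSMB9 changed by -0.15 (SE 0.06, adjusted p 0.034). For PSMB8 the log2 change was 0.04 (SE 0.034, adjusted p 0.34), and it was -0.03 when libraries were scaled by their totals alone. The HLA-B and HLA-C calls were lost with library totals alone (0.04 each, adjusted p 0.23 and 0.32), without the parental untreated library 2 (0.1 each, adjusted p 0.059 and 0.08) and without the parental indisulam library 1 (0.06 and 0.04, adjusted p 0.2 and 0.45). PSMB9 was lost with the DESeq2 Wald test (-0.14, adjusted p 0.11), without the parental untreated library 1 (-0.09, adjusted p 0.32) and without the parental indisulam library 2 (-0.13, adjusted p 0.14). None of the 9 passed in parental cells when tested against 0.5 log2 units.

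**Figure D3:**
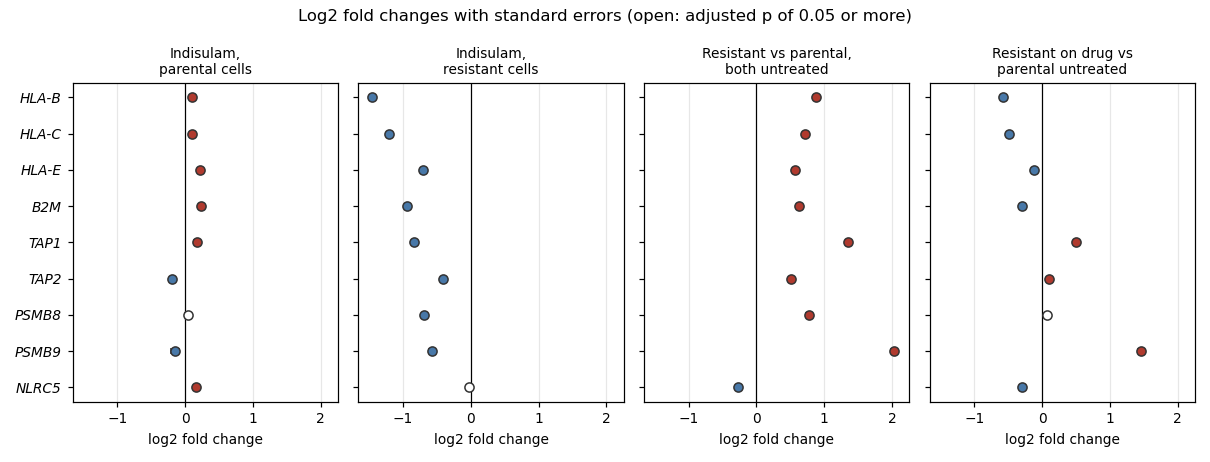
Log2 fold changes of the 9 members in 4 comparisons, with standard errors that are mostly smaller than the points. Red points were called higher, blue points called lower, and open points had an adjusted p of 0.05 or more. In resistant cells on the drug against parental untreated cells, HLA-B, HLA-C, HLA-E, B2M and NLRC5 lie to the left of 0, and TAP1, TAP2 and PSMB9 to the right.

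The difference between cells on and off the drug was not the same in the lines, by the interaction term. All 9 members were called lower for the response of resistant minus that of parental cells, against 27.5% of all genes called lower and 22.7% called higher. The difference was -1.56 log2 units for HLA-B (SE 0.041, adjusted p 5.1e-18), -1.31 for HLA-C, -1.18 for B2M, -1.01 for TAP1 and -0.92 for HLA-E. It was smallest for TAP2 at -0.21 (adjusted p 0.00025) and NLRC5 at -0.18 (adjusted p 0.0028), and these calls were lost with library totals alone, at -0.1 (adjusted p 0.066) and -0.07 (adjusted p 0.25). That scaling moved the median of all genes by 0.12 log2 units in this comparison. Parental cells had seen the drug for 18 h and resistant cells continuously, so line and length of exposure cannot be told apart. Untreated resistant cells had also come off the drug, which untreated parental cells had not, and the part of this was not tested.

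With both lines on the drug, 3 members were higher in resistant cells, 5 lower and 1 not called, against 34.6% and 34.9% of all genes. HLA-B, HLA-C, B2M and HLA-E were lower in resistant cells, by log2 changes of -0.68, -0.59, -0.55 and -0.34, and NLRC5 by -0.46. PSMB9, TAP1 and TAP2 were higher, by 1.61, 0.34 and 0.3. Resistant cells on the drug against parental untreated cells gave the same split of 3 higher, 5 lower and 1 not called, against 32.2% and 32.6% of all genes. These comparisons share the 2 resistant indisulam libraries, so the split is not a separate observation, and the TAP2 call in the second was lost when any 1 of the 3 libraries named for TAP2 was left out.

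Levels can be set between members only per length. Per kilobase of exon, parental untreated cells held 241 CPM of B2M, 191 of HLA-C, 186 of HLA-B, 76.1 of HLA-E, 19.4 of PSMB8, 12.9 of TAP1, 7.08 of TAP2, 5.88 of NLRC5 and 2.71 of PSMB9, and with the longest transcript as the length the order was the same. HLA-B and HLA-C were neighbours within 10 CPM per kilobase of each other. In resistant untreated cells B2M stood at 373, HLA-B at 344 and HLA-C at 313 CPM per kilobase, and PSMB9, at 11.1, was above NLRC5, at 4.87. The order of the middle members there depended on the length used. TAP1 and PSMB8 stood at 32.8 and 33 per kilobase of exon but at 55.7 and 48.4 per kilobase of the longest transcript, and PSMB9 was above TAP2 per kilobase of exon but below it, at 13.8 against 16.8, per kilobase of the longest transcript.

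Other genes of the pathway were counted by list, and each count is to be read against all tested genes, of which 30.3% were higher and 29.9% lower between the untreated lines and 24.9% were higher and 25.8% lower on the drug in resistant cells (medians -0.02 and 0.01). Among 9 genes of peptide loading and trimming, 6 were higher and 2 lower in resistant than in parental untreated cells, and none was higher and 8 were lower on the drug in resistant cells, with median log2 changes of 0.27 and -0.23. TAPBP (tapasin), which bridges the transporter and the heavy chain, was 0.72 log2 units higher between the lines (SE 0.055, adjusted p 6.8e-06) and changed by -0.44 on the drug in resistant cells (SE 0.055, adjusted p 0.00025). It also fell on the drug in parental cells, by 0.53 on the log2 scale (adjusted p 7.1e-05), and the difference of its responses, 0.09 (SE 0.079, adjusted p 0.38), was not called. TAPBPL, a tapasin-like peptide editor, had the largest rise of the list between the lines, 1.35 log2 units. Of PSMB10, PSME1, PSME2, PSME3 and POMP, 4 were higher between the untreated lines and all 5 were lower on the drug in resistant cells, against 30.3% and 25.8% of all genes, with medians of 0.64 and -0.36. PSMB10 rose by 1.06 log2 units between the lines (SE 0.054, adjusted p 2.2e-14), and the proteasome activator subunit PSME1 had the largest fall on the drug, at -0.51.

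Of 8 other class I and class I-like heavy chains, 7 could be tested, of which 5 were higher and none lower between the untreated lines (30.3% and 29.9% of all genes), and 2 were higher, 2 lower and 3 not called on the drug in resistant cells (24.9% and 25.8% of all genes called higher and lower). HLA-F had the largest fall of this list on the drug in resistant cells, a log2 change of -1.35 (SE 0.041, adjusted p 7.7e-17). FCGRT, the neonatal Fc receptor, which pairs with B2M but presents no peptide, went the other way there, at 0.61 (SE 0.11, adjusted p 6.2e-05), from 2.74 and 3.16 to 4.73 and 4.26 CPM. Class II genes were low, with 4 of 14 past the filter and a summed level of 3.35 to 3.64 CPM in untreated parental and 7.63 to 7.81 CPM in untreated resistant cells. CIITA, the class II transactivator, had at most 8 reads in any library and HLA-DRA at most 1. Of the 4 genes tested, 3 were higher and none lower between the untreated lines, against 30.3% and 29.9% of all genes. The 3 were CTSS, a lysosomal protease (1.21 log2 units, adjusted p 7.6e-11), HLA-DMA and CD74. HLA-DMA, a peptide loading chaperone chain (0.94, adjusted p 8.3e-05), had at most 132 reads in any library. CD74, the invariant chain (adjusted p 2.4e-09), had at most 45.

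Of the regulators, the 14 genes of interferon signalling had 9 higher and 4 lower in resistant than in parental untreated cells, and 5 higher and 6 lower on the drug in resistant cells, with medians of 0.26 and -0.12. Over all genes the shares were 30.3% and 29.9%, and 24.9% and 25.8%. IRF1, a factor that binds ISRE sites, was 1.11 log2 units higher between the untreated lines and changed by -0.41 on the drug in resistant cells (adjusted p 9.8e-19 and 3.1e-10).

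Of the 8 enhanceosome genes through which NLRC5 acts, 3 were higher, 3 lower and 2 not called between the untreated lines (30.3% and 29.9% of all genes), and 1 was higher, 2 lower and 5 not called on the drug in resistant cells (24.9% and 25.8% of all genes). RFX5 gave -0.06 between the untreated lines (SE 0.036, adjusted p 0.16) and rose by 0.19 on the drug in resistant cells (SE 0.037, adjusted p 0.00013). NFYA had the largest fall between the lines, at -0.46, and RFXANK the largest rise, at 0.42. Of 5 NF-kB subunits, 1 was higher and 1 lower between the untreated lines, and 2 were higher and none lower on the drug in resistant cells, where the same shares over all genes apply.

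Ligands of NK and checkpoint receptors, which are read beside class I on the cell surface, had 11 of 12 genes tested, with 6 higher and 3 lower between the untreated lines and 6 higher and none lower on the drug in resistant cells, against 30.3%, 29.9%, 24.9% and 25.8% of all genes. CD274, which encodes the checkpoint ligand PD-L1, had the largest fall between the untreated lines, at -0.55 (SE 0.03, adjusted p 7.1e-14). HLA-B, HLA-C and HLA-E were higher there, and so was PDCD1LG2, a further checkpoint ligand gene, at 0.67 (SE 0.044, adjusted p 3.5e-12). ULBP2 had the largest rise, at 1.4 (SE 0.38, adjusted p 0.003), but was low, from 0.119 and 0.0749 to 0.297 and 0.216 CPM.

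**Figure D4:**
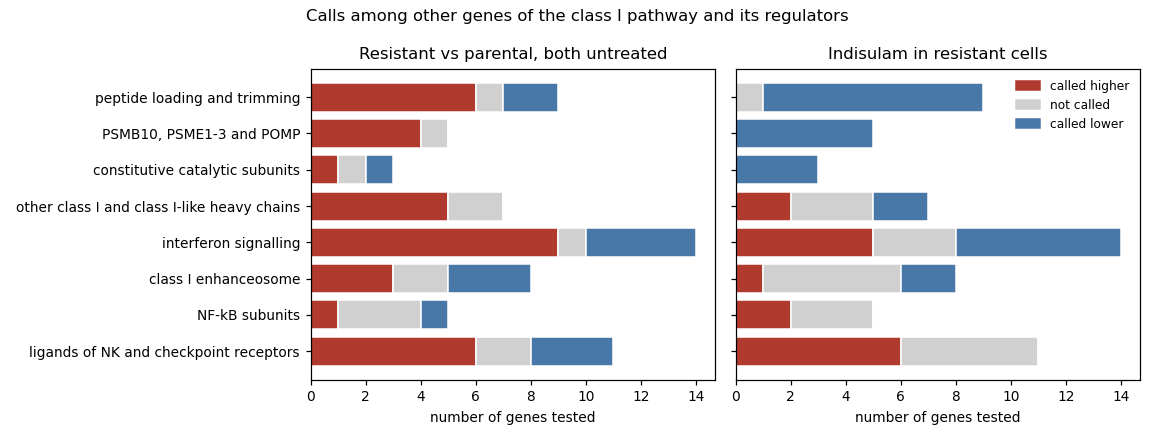
Number of tested genes called higher (red), not called (grey) and called lower (blue) in 8 lists of pathway genes and regulators, for resistant against parental untreated cells (left) and for indisulam in resistant cells (right). All 5 genes of PSMB10, PSME1-3 and POMP and 8 of 9 genes of peptide loading and trimming were called lower on the right.

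Genes with the most similar profiles were sought for HLA-B, TAP1 and NLRC5 among 14662 genes, by the root mean square (RMS) difference of centred log2 CPM over the 8 libraries, with the other members left out. As the libraries fall into 4 groups, the measure mainly compares 4 means. Among the 3 nearest to HLA-B were RPS6KA2 (RMS 0.105) and MGP (0.166), against a range of 1.48 log2 units for HLA-B itself. RPS6KA2 and MGP were low, at 1.93 and 0.883 CPM in parental untreated cells. Nearest to TAP1, whose range was 1.38, were TRIM21 (0.0606), a cytosolic antibody receptor, IFITM3 (0.092), an antiviral membrane protein, and GAS6 (0.101), a ligand of receptor tyrosine kinases. TRIM21 stood at 13.6 CPM in untreated and 14.6 in treated parental cells, and at 36.6 in untreated and 18.5 in treated resistant cells. Nearest to NLRC5, with a range of only 0.48, were BRD3OS (0.0296), WDR5 (0.0298), a subunit of histone methyltransferase complexes, and CENPBD2P (0.0301).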

How the data were processed

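RNA sequencing libraries were prepared by the study from polyadenylated RNA with a stranded kit and sequenced as read pairs. The authors trimmed reads with SeqPurge, aligned them with HISAT2 2.2.1 to GRCh38 and marked duplicates with Picard, and HTSeq is named in the submitters' processing notes. They deposited raw read counts per gene, with 9 further lines for unassigned reads (duplicates, low mapping quality, ambiguous reads), which were left out of library sizes. The annotation release and strand setting are not given in the sources used here. Symbols and positions come from GENCODE release 44, which matched 60419 of 60675 identifiers.

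Tests were run in R 4.3.3 with edgeR 4.0.16 (filterByExpr, TMM, robust quasi-likelihood fit of 4 group means over 8 libraries, 4 residual degrees of freedom). Standard errors were derived from the F statistic. P-values were adjusted by Benjamini-Hochberg over all 16661 genes and called under 0.05. An exact permutation test of 2 libraries against 2 cannot reach 0.05. The code was tested on simulated counts. DESeq2 1.42.0, other scalings, filters and left-out libraries were alternatives. Replicates differed by more than sampling noise (mean chi-square per gene 1.95 to 5.8). The members and lists were chosen with earlier results of these data known. Named genes were the 9 members, the largest rise or fall of a list, listed genes a result turns on, and the 3 most similar profiles. Some genes under this rule are not reported here. Figures were drawn with matplotlib 3.10.9.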

Additional observations from a re-analysis of the deposited data

Results flagged for a closer look

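In all 9 members the interaction term found the change between cells on and off the drug to differ between the lines (quasi-likelihood test). Exposure differed too, at 18 h in parental cells and continuous in resistant cells. The log2 response in resistant minus parental cells was -1.56 for HLA-B, -1.31 for HLA-C, -1.18 for B2M, -1.01 for TAP1, -0.92 for HLA-E, -0.73 for PSMB8, -0.42 for PSMB9, -0.21 for TAP2 and -0.18 for NLRC5. For HLA-B, HLA-C, HLA-E, B2M and TAP1 a rise in parental cells stood against a fall in resistant cells. The parental rises of HLA-B and HLA-C were small, at 0.11 each, and lost their calls under several settings, among them library totals alone (0.04 each). TAP2 and PSMB9 were lower on the drug in both lines, PSMB8 was called in resistant cells only and NLRC5 in parental cells only. Of all tested genes, 27.5% were called lower for this difference.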

How the results depend on the processing

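Over all alternatives, 854 of the member log2 changes kept their side of the threshold, 44 lost their call, 11 gained one and none that was called changed sign. Of the 44 losses, 26 came from testing against 0.5 log2 units. Under that test 0 of the 9 members were called for the drug in parental cells, 6 for the drug in resistant cells and 7 for the lines off the drug. It called 3 for the lines on the drug, 2 for resistant cells on the drug against parental untreated cells and 6 for the difference of responses. Of all 16661 genes, 1042, 879, 2582, 3509, 2978 and 908 were called in the same order of comparisons. Leaving out 1 library in turn left 1 group with 1 library, so log2 changes alone are given here. For the drug in resistant cells they ran from -1.48 to -1.43 for HLA-B and from -0.06 to 0.01 for NLRC5, and stayed at -0.41 for TAP2. For the lines off the drug the ranges were 0.87 to 0.9, -0.31 to -0.23 and 0.5 to 0.52 in the same order of genes. For the drug in parental cells they were 0.06 to 0.12, 0.13 to 0.2 and -0.24 to -0.18. With replicate number added as a block, the fit called 8 members for the drug in parental and 8 in resistant cells, 9 for the lines off the drug and 8319 genes for the drug in resistant cells, and changed no member's call. Same-numbered libraries are not said to share a batch. Their deviations correlated at -0.192 to 0.137 over 6 pairs of groups, which cannot decide whether they did. Library totals alone moved the share of calls that were higher from 54.3% to 42% for the drug in parental cells, from 49.1% to 59.7% in resistant cells, from 49.8% to 59.7% for the lines on the drug, where PSMB8 was then called (0.12), and from 45.2% to 65.8% for the difference of responses. A mean CPM of at least 1 ended the parental calls of HLA-B and HLA-C (0.05 each) and the difference for NLRC5 (-0.1, adjusted p 0.086). The cause of these shifts was not tested. Each group mean rests on 2 libraries, alleles and splicing were not analysed here, and all tests concern 1 resistant line.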
